A study of Mus musculus with 14 samples.

Results

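The expression of 37 genes of glucose entry, glycolysis, lactate handling and glycogen metabolism was examined in mouse hearts after loss of Fam210a, out of 53735 gene symbols counted. They were listed by name, in a list drawn up with results of these data known, so their counts beside all genes describe the list. They comprise 4 glucose and lactate transporters, 3 genes of the hexokinase and isomerase steps, 3 phosphofructokinases, 4 enzymes that make or remove the signal molecule fructose bisphosphate (the 2,6 form), 10 genes of the steps from aldolase to pyruvate kinase and 2 lactate dehydrogenases. There are also 4 genes of glycogen synthesis, 5 of glycogen breakdown, and Fbp2 and G6pdx from side branches.

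Hearts came from male C57BL/6 mice. Knockout (cKO) hearts had the genotype Fam210a fl/fl, alphaMHC MCM/+ and control hearts alphaMHC MCM/+, so both carried the MerCreMer transgene, a Cre recombinase that tamoxifen activates and that the cardiomyocyte Myh6 (alphaMHC) promoter drives. The protein made from Fam210a is mitochondrial. Collection was about 5 weeks after tamoxifen for 4 cKO and 4 control hearts, called early here, and about 10 weeks after it for 3 cKO and 3 control hearts, called late. RNA was made from the heart without sorting of cells, so fewer cells of a type and less RNA per cell cannot be told apart. Whether each library is a separate animal is not stated, and p-values measure the spread between these libraries. The title and description of early cKO replicate 4 name a knockout, while its genotype field names the control. It was kept as a knockout.

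Glycolysis splits glucose into pyruvate, which is oxidised in mitochondria or reduced to lactate, and glycogen stores glucose inside the cell. Many steps are served by isoforms from separate genes. Eno3, Pgam2, Pfkm, Pygm and Slc2a4 (the insulin-regulated transporter GLUT4) are typical of adult striated muscle and Ldhb of the heart, whereas Eno1, Pgam1, Ldha, Hk1 and Slc2a1 (GLUT1) are found in most tissues. The healthy adult heart burns mainly fatty acids, and forms such as Slc2a1, Hk1 and Eno1 are known from the fetal heart.

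The 8 early totals ran from 15657298 to 19466469 counts and the 6 late totals from 29989076 to 35750964. Early and late counts stand in separate tables, hence time cannot be told apart from table, and only changes within a table were compared. Fam210a stood at 135 to 158 CPM (counts scaled to a common library size after TMM normalization) in early cKO hearts and 165 to 178 CPM in early controls. This did not pass edgeR's test (log2 fold change, called log2 change below, -0.22, SE 0.06, adjusted p = 0.17). Late, Fam210a fell from 120.1 to 134 CPM in controls to 64.6 to 70.8 CPM in cKO hearts (log2 change -0.94, SE 0.11, adjusted p = 6.5e-05). All 10 cardiomyocyte markers were detected in every heart, and 10 skeletal muscle markers summed to at most 9.12 CPM. Late cKO replicate 3 differed from the other late cKO hearts more (chi-square per gene 64.5 and 68.3) than those differed from each other (14.1).

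The early comparison concerns hearts about 5 weeks after tamoxifen. No member was called at an adjusted p under 0.05. Of 36 tested by edgeR, 0 passed, against 0.613% of all genes tested (0.517% higher and 0.0961% lower in cKO), and 9 had an unadjusted p under 0.05, against 10.3% of all genes. DESeq2 called 2, Eno3 and Slc16a1, both lower in cKO hearts. The median log2 fold change of the tested members was -0.06 (0.00 over all genes), with 10 above and 26 below 0. Of the 9, Slc2a4, Slc16a1, Pfkfb2, Pgam2, Eno3 and Ldhb were lower in cKO and Pfkp, Pfkfb4 and Gyg higher. Groups did not overlap for 3 members, Eno3, Slc16a1 and Gyg, and for 5.65% of all genes. Leaving out any 1 early heart, or counting cKO replicate 4 as a control, also gave 0 called members in edgeR. The number of members with an unadjusted p under 0.05 moved from 9 to 5 without cKO replicate 2, to 6 without cKO replicate 3 or control replicate 2, and to 12 without cKO replicate 4.

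Eno3, the muscle enolase, stood at 1053, 1083, 1014 and 1008 CPM in early cKO hearts and at 1144, 1173, 1425 and 1222 CPM in controls. Every cKO heart was below every control, at a log2 fold change of -0.26 (SE 0.07, edgeR adjusted p = 0.198). DESeq2 gave Eno3 an adjusted p of 0.044, and edgeR without the filter on low counts 0.0368. Slc16a1, which encodes the lactate and pyruvate transporter MCT1, stood at 272, 270.1, 263 and 286 CPM in early cKO hearts and at 313, 308, 336 and 297 CPM in controls. Its log2 fold change was -0.20 (SE 0.06, edgeR adjusted p = 0.202, DESeq2 adjusted p = 0.0451). Gyg, or glycogenin, the protein primer on which glycogen is built, stood at 162, 179, 194 and 162 CPM in early cKO hearts and at 145, 148, 157 and 149 CPM in controls. Its log2 fold change was 0.22 (SE 0.07, edgeR adjusted p = 0.249). In these 3 genes the groups were separate while the means differed little.

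The other forms of the compared pairs overlapped between early groups. Slc2a4 stood at 362 to 405 CPM in early cKO hearts and 397 to 497 CPM in controls, and Slc2a1 at 16.6 to 25.3 and 19.15 to 20.5 CPM. Pgam2 stood at 333 to 386 CPM in cKO hearts and 373 to 453 CPM in controls, and Pgam1 at 7.32 to 8.475 and 7.65 to 8.68 CPM. Ldhb stood at 906 to 980.4 CPM in cKO hearts and 969 to 1195 CPM in controls, Ldha at 425 to 527 and 474 to 557 CPM, and Eno1 at 60.15 to 67.1 and 62.7 to 66.2 CPM. None of these 7 genes was called.

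For 11 pairs the log2 ratio of 1 gene, mostly the muscle or heart form, to its counterpart was also taken within each heart, per kb of transcript, a measure that does not depend on library scaling. No early pair separated the groups. The smallest exact permutation p was 0.0571 (Eno3 to Eno1, and Pygm to Pygb, the muscle and brain glycogen phosphorylases), and 0.251 after adjustment over the 11 pairs. The summed level per kb of the 2 enolases was 0.845-fold that of controls, that of Ldha and Ldhb 0.913-fold and that of Slc16a1 and Slc16a3 0.871-fold, with every early cKO heart below every control. Each of these 3 sums had an exact permutation p of 0.0286, the smallest possible with 4 against 4 hearts, and 0.0857 after adjustment over 9 families. The 10 cardiomyocyte markers summed to 64220 to 69000 CPM in early cKO hearts and 71570 to 79030 CPM in controls, also without overlap. Myh6, at 24160 to 27350 CPM in cKO hearts and 28380 to 30210 CPM in controls, makes up much of that sum. Of the 10 markers, 3 did not overlap between groups (5.65% of all genes) and 0 were called (0.613% of all genes). The 7 adipocyte markers summed to 3.36, 18.1, 27.9 and 19.6 CPM in early cKO hearts and 0.474 to 3.59 CPM in controls. Of these, edgeR called 1 of 2 tested higher (Car3), against 0.517% of all genes. DESeq2 called 5 of the 7 higher, against 127 of all 16452 genes it tested. The 5 atrial markers summed to 1480 CPM in early cKO replicate 2, with Bmp10 at 165 CPM, and to at most 334 CPM in the other early hearts, with Bmp10 at most 0.0593 CPM. The part of these markers in the early values was not tested.

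At about 10 weeks most members differed. Of 37 tested, 21 rose (31.8% of all genes did) and 12 fell (33.2% of all genes), so that 89.2% of members were called against 65% of all genes. The 4 not called were Pfkfb3, Pfkfb4, Ldha and Pygb. Of the members, 23 were called with a log2 fold change of at least 1 in size, 15 higher and 8 lower, against 35.3% of all genes. The median log2 fold change was 0.55 (-0.02 over all genes), and groups did not overlap for 34 members, against 69.8% of all genes. Without late cKO replicate 3, which stands apart, 35 members were called, 23 higher and 12 lower, with Pfkfb3 and Pygb added. Of the 9 genes that stand first in the 11 pairs, 7 fell and 2 rose. Those that rose were Aldoa, the main aldolase of muscle but made in most tissues, and Slc16a1. Of 11 counterparts 8 rose, 1 fell and 2 were not called.

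**Figure D1:**
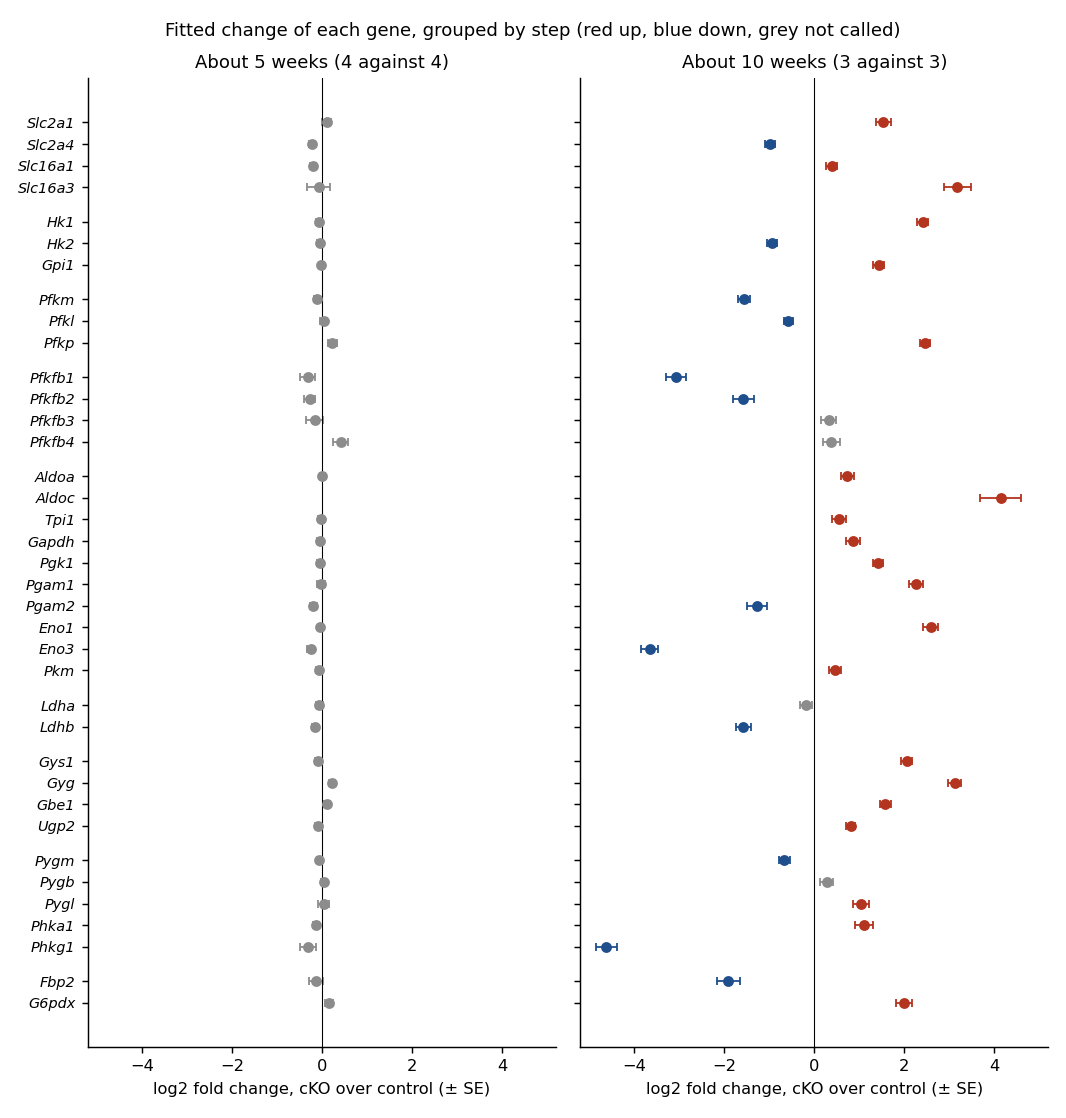
Log2 fold change of each of the 37 genes (cKO over control, points with SE bars) early (left) and late (right), grouped by step of the pathway, with called rises in red, called falls in blue and other genes in grey. Early points lie near 0 and none is coloured, while late points spread from -4.61 (Phkg1) to 4.14 (Aldoc). Aldoc was not tested early and has no early point.

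The late changes were also set against the early ones in 1 fit over all 14 hearts. The difference between times was called for 33 of 37 members (21 higher and 12 lower), against 61.2% of all genes (29.8% higher, 31.3% lower). Slc16a1 was the member whose groups were separate in opposite directions, at a log2 fold change of -0.20 early and 0.39 late (difference 0.61, SE 0.11, adjusted p = 0.000275). Its late call is lost in several settings. The difference was -3.38 for Eno3 (SE 0.18, adjusted p = 6.42e-10) and 2.92 for Gyg (SE 0.14, adjusted p = 2.08e-10). It was not called for Pfkfb3, Pfkfb4, Ldha and Pygb.

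Several late cell type marker sums moved with genotype beside these changes. The 8 endothelial markers summed to 692 to 758 CPM in late cKO hearts and 1624 to 1799 CPM in controls, and the 10 macrophage and leukocyte markers to 155 to 189 and 320.3 to 330.2 CPM. The 7 red blood cell markers summed to 198 to 381 CPM in cKO hearts and 42.7 to 74.3 CPM in controls, and the 7 smooth muscle and pericyte markers to 1557 to 2295 and 1183 to 1321 CPM, where Acta2 rose and the other 6 fell. Groups did not overlap in any of these 4 sums, and no endothelial, macrophage or smooth muscle marker was at 0 in a late heart. The 8 fibroblast markers summed to 879 to 1258 CPM in cKO hearts and 1075 to 1430 CPM in controls, with overlap. Of the 8, 4 were called lower (33.2% of all genes were) and 1 higher (31.8% of all genes). That is 62.5% called either way, near the 65% of all genes. Dcn stood at 232 to 355 CPM in cKO hearts and 544 to 661 CPM in controls and Lum at 12.3 to 19.7 and 68.9 to 94.3 CPM, both lower, as were Tcf21 and Fn1, while Postn, a gene of activated fibroblasts, stood higher at 207 to 385 and 46.8 to 81.6 CPM.

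The 10 cardiomyocyte markers summed to 65620 to 76600 CPM in late cKO hearts and 73770 to 83580 CPM in controls, with overlap, but Myh6, at 26550 CPM or more in every late heart, makes up much of that sum. Of the 10, 4 were called lower (33.2% of all genes were), 1 higher (31.8% of all genes) and 5 not. The ventricular light chain Myl3 stood at 914, 739.7 and 1033 CPM in cKO hearts and 5991, 5431 and 4308 CPM in controls, and Pln, the brake on the calcium pump, at 1024 to 1540 and 3692 to 4543 CPM. Tnni3, the cardiac troponin I, stood at 1614 to 2936 CPM in cKO hearts and 4157 to 5662 CPM in controls, and Myl2 at 3978 to 6017 and 8153 to 11470 CPM. Actn2 was the one called higher, at 4126 to 4492 CPM against 2223 to 2288 CPM. Myl3, Pln, Tnni3 and Myl2 were lower in every late cKO heart than in every control, while Actn2 and Myh6 were higher. Myh6, which was not called, stood at 29540 to 34780 CPM in cKO hearts and 26550 to 28840 CPM in controls. Of the 10 markers 50% were called either way, against 65% of all genes.

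The 5 atrial markers summed to 1751 to 2890 CPM in late cKO hearts and 131 to 948 CPM in controls, but that was Nppa, which stressed ventricles also make. The other 4 overlapped between groups, with Myl7 at 78.9, 0.0853 and 0.24 CPM in cKO hearts and 15.9, 21.3 and 111 CPM in controls. Late control replicate 3 stood apart in Bmp10, at 104 CPM against at most 0.754 CPM in the other late hearts. Without that replicate 30 members were called, and without control replicate 2, with Bmp10 at 0.0943 CPM, also 30. The 7 adipocyte markers summed to 0.0853 to 6.83 CPM in late cKO hearts and 1.53, 34.4 and 22.5 CPM in controls. The part of cell makeup in the late changes was not tested.

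To show the sequence beside the values, promoter windows were read for 36 of the 37 members, all but Slc2a4, from before to just after each RefSeq start (GRCm38.p6, 54 windows of 300 bases). The motifs searched on both strands were the hypoxia element core ACGTG and the E-box CACGTG, which contains that core on each strand and so counts as 2 core sites. Others were the ATF4-type composite TGATGNAA, the TEAD-type motif CATTCC and the MEF2 consensus. ACGTG was in 48.1% of member windows, against 19.6% of all 32851 windows, CACGTG in 13.0% and 7.2%, TGATGNAA in 1.9% and 4.0%, CATTCC in 11.1% and 14.7%, and the MEF2 consensus in 3.7% and 3.2%. The 29 windows of members that rose late and the 19 of those that fell held ACGTG in 51.7% and 36.8%. The other motifs were in few windows of either kind, CACGTG in 6.9% (2 windows) and 15.8% (3), TGATGNAA in 0 and 5.3%, CATTCC in 13.8% and 10.5%, and the MEF2 consensus in 0 and 10.5%. A match is letters in a window, not a bound site, and windows of 1 gene can overlap. The 4 windows below were chosen after the values were seen, as 2 members that rose late, 1 that was not called and 1 that fell, each with a match. Capitals mark the core ACGTG on either strand, and in Pgam2 the MEF2 match.
Gyg, chr3:20155067-20155366, minus strand: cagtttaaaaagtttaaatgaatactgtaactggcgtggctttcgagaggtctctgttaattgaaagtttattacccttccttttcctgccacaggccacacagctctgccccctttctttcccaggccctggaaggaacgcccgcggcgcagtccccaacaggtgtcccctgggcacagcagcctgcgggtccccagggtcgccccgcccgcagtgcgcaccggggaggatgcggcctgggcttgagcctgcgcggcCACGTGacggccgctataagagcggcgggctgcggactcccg
Pgk1, chrX:106186850-106187149, plus strand: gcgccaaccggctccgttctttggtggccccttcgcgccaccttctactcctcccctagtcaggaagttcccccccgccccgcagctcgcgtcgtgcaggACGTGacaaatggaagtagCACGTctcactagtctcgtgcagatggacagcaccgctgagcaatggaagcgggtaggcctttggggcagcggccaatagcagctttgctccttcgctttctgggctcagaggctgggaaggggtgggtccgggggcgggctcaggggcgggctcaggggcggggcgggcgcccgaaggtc
Ldha, chr7:46845554-46845853, plus strand: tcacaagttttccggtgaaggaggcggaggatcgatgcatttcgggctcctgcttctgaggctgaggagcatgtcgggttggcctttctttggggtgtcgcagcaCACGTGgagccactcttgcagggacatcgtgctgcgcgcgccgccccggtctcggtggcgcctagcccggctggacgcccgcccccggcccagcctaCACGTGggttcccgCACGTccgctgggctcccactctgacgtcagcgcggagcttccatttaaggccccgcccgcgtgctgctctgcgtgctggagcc
Pgam2, chr11:5803747-5804046, minus strand: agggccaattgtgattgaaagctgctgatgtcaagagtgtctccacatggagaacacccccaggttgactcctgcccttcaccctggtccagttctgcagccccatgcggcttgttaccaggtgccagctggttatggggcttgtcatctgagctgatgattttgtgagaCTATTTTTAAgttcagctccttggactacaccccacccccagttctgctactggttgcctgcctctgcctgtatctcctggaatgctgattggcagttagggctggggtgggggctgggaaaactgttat
The window of Gyg holds 2 ACGTG sites in 1 E-box, that of Pgk1 2 and the printed window of Ldha 5. A further window of Ldha, chr7:46846832-46847131, holds 0.

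Enolase showed the widest swing of any pair late. Eno3, at chr11:70657202-70662513 on GRCm38, stood at 89.6, 121 and 132 CPM in late cKO hearts and at 1619, 1392 and 1313 CPM in controls, and fell 12.6-fold (log2 change -3.66, SE 0.18, adjusted p = 7.8e-07). Eno1, the enolase of most tissues (chr4:150236721-150248879), stood at 495, 546 and 750.3 CPM in late cKO hearts and at 105, 101 and 92.8 CPM in controls, and rose 5.99-fold (log2 change 2.58, SE 0.17, adjusted p = 3.52e-06). All cKO hearts were far outside the control range in both genes, with replicate 3 highest for Eno1. The within-heart log2 ratio of Eno3 to Eno1 per kb was -2.09, -1.80 and -2.13 in cKO hearts and 4.32, 4.15 and 4.20 in controls, so the order of the 2 forms was turned over.

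Per kb of the principal transcript, Eno1 made up 80.0% ± 2.07 of the 2 enolases in late cKO hearts and 5.08% ± 0.293 in controls (SD, n = 3 each). With all annotated exons as the length these shares were 62.7% and 2.19%. The summed enolase level was 0.375-fold that of controls (0.207-fold with all exons), with every cKO heart below every control and an exact permutation p of 0.1, the smallest possible with 3 against 3 hearts. The sum was thus lower although Eno1 rose. Early, Eno1 was 4.44% ± 0.334 of enolase in cKO hearts and 3.88% ± 0.318 in controls (n = 4 each).

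Phosphoglycerate mutase moved the same way. Pgam2, the muscle form, whose window with the MEF2 match is printed above, stood at 177, 169.8 and 292 CPM in late cKO hearts and at 588, 524 and 424 CPM in controls (log2 change -1.26, SE 0.22, adjusted p = 0.000894). Pgam1 stood at 61.8, 86.3 and 79.5 CPM in late cKO hearts and at 17.7, 14.6 and 15.2 CPM in controls (log2 change 2.26, SE 0.16, adjusted p = 4.3e-06). Neither gene overlapped between groups, although Pgam2 in cKO replicate 3 came nearest to the controls. Pgam1 made up 14.98% ± 4.05 of the 2 forms in cKO hearts and 1.46% ± 0.194 in controls, so Pgam2 remained the larger part in every heart. The summed level was 0.472-fold that of controls (exact permutation p = 0.1, no overlap).

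In lactate dehydrogenase the heart form fell and the other was not called. Ldhb, the form that favours use of lactate, stood at 407, 399 and 546 CPM in late cKO hearts and at 1568, 1288 and 1174 CPM in controls (log2 change -1.58, SE 0.17, adjusted p = 5.14e-05). Ldha, the form of glycolytic tissues, stood at 505, 629.9 and 619.7 CPM in late cKO hearts and at 716, 643 and 637 CPM in controls (log2 change -0.19, SE 0.13, adjusted p = 0.236). Every cKO heart was below every control in Ldha too, by little in replicates 2 and 3. With upper quartile scaling Ldha was called lower (log2 change -0.36, adjusted p = 0.0391). Ldha made up 49.1% ± 4.27 of the 2 forms in cKO hearts and 26.9% ± 1.70 in controls, and the sum was 0.481-fold that of controls (exact permutation p = 0.1, no overlap).

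**Figure D2:**
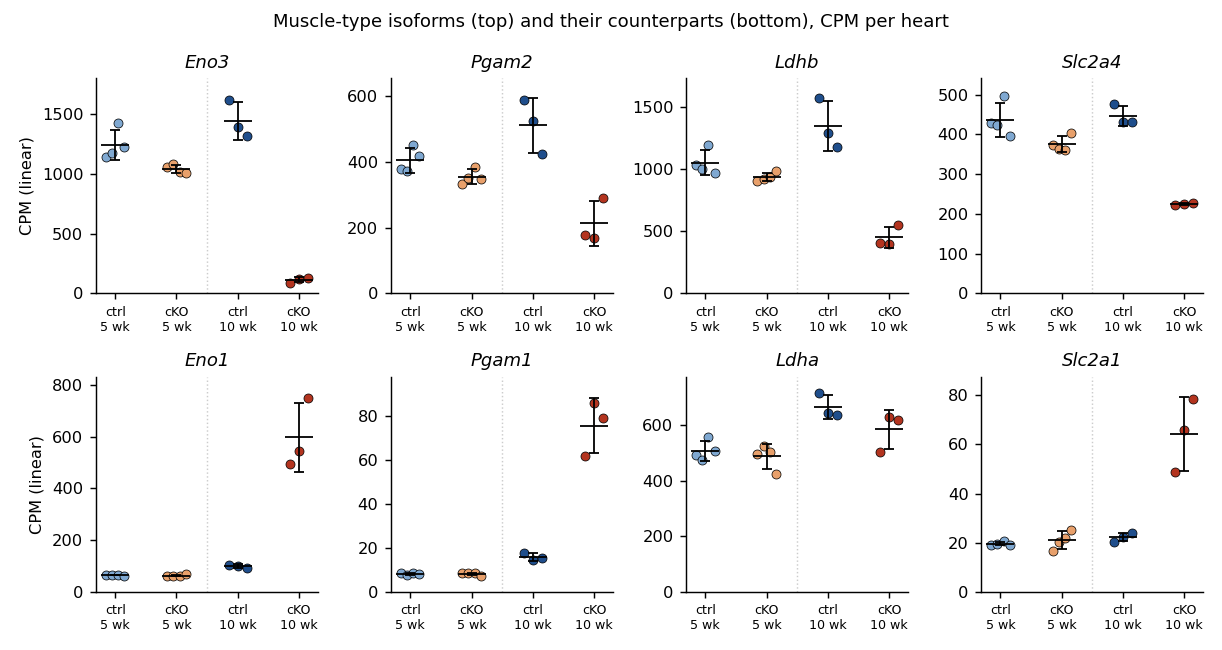
CPM of the muscle or heart forms (top row) and their counterparts (bottom row) in each heart at both times, points for hearts, bars for the mean and SD, linear axes from 0. Eno3, Pgam2, Ldhb and Slc2a4 are lower in late cKO hearts, Eno1, Pgam1 and Slc2a1 higher, and Ldha lies just under its controls. Levels are compared within a time, since the times stand in separate tables.

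Among transporters, GLUT4 fell and GLUT1 rose. Slc2a4 stood at 223, 225 and 228 CPM in late cKO hearts and at 476, 432 and 433 CPM in controls (log2 change -0.99, SE 0.11, adjusted p = 5.12e-05). Slc2a1 (chr4:119108711-119137983) stood at 48.7, 65.9 and 78.7 CPM in late cKO hearts and at 20.45, 22.4 and 23.7 CPM in controls (log2 change 1.54, SE 0.18, adjusted p = 6.98e-05). The cKO hearts were nearly alike in Slc2a4 and spread more in Slc2a1. Slc2a1 was 18.0% ± 3.31 of the sum per kb in cKO hearts and 3.72% ± 0.446 in controls, and the sum was 0.593-fold that of controls (exact permutation p = 0.1, no overlap), so Slc2a4 remained the larger part.

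Both monocarboxylate transporters rose late. Slc16a3 (MCT4, which exports lactate from glycolytic cells) stood at 13.3, 30.1 and 26.15 CPM in late cKO hearts and at 2.21, 2.89 and 2.58 CPM in controls, a 9.04-fold rise (log2 change 3.18, SE 0.30, adjusted p = 2.23e-05). Every cKO heart was above every control. Slc16a1 (MCT1) stood at 299.5, 314 and 259 CPM in late cKO hearts and at 234, 205 and 226 CPM in controls (log2 change 0.39, SE 0.12, adjusted p = 0.0179). Its groups did not overlap, but the call was lost without cKO replicate 2 (adjusted p = 0.0649), without control replicate 2 (adjusted p = 0.101) or without control replicate 3 (adjusted p = 0.0554). MCT1 remained most of the sum, with Slc16a3 at 7.54% ± 2.78 in cKO hearts and 1.18% ± 0.234 in controls.

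At the first step of glycolysis, which traps glucose as its phosphate, Hk1 rose and the insulin-responsive muscle form Hk2 fell. Hk1 (chr10:62268855-62379908) stood at 990, 1102 and 1063 CPM in late cKO hearts and at 197, 191 and 208 CPM in controls (log2 change 2.40, SE 0.12, adjusted p = 7.16e-07). Hk2 stood at 159, 171 and 157 CPM in late cKO hearts and at 302, 299 and 331 CPM in controls (log2 change -0.94, SE 0.11, adjusted p = 7.47e-05). Per kb, Hk1 made up 90.3% ± 0.359 of the 2 forms in cKO hearts and 47.8% ± 0.489 in controls (81.9% and 30.9% with all annotated exons as the length). Unlike the enolases, the summed hexokinases were higher, 2.80-fold by principal transcript and 1.997-fold by all exons (exact permutation p = 0.1, no overlap). Gpi1, which turns glucose phosphate into fructose phosphate, stood at 1592, 1610 and 1859 CPM in late cKO hearts and at 646, 616 and 617 CPM in controls (log2 change 1.43, SE 0.12, adjusted p = 1.3e-05).

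Phosphofructokinase, the committed step, changed in make-up. Pfkm, the muscle form, stood at 418, 353 and 418 CPM in late cKO hearts and at 1289, 1111 and 1117 CPM in controls (log2 change -1.57, SE 0.13, adjusted p = 1.16e-05). Pfkp, the platelet form (chr13:6579768-6648777), stood at 316, 349 and 329 CPM in late cKO hearts and at 59.6, 62.0 and 59.3 CPM in controls (log2 change 2.46, SE 0.11, adjusted p = 5.06e-07). Pfkl, the liver form, fell with Pfkm, from 148 ± 4.27 to 99.8 ± 5.99 CPM (SD over 3 hearts in each group; log2 change -0.57, SE 0.10, adjusted p = 0.00112). Pfkp took 32.8% ± 2.77 of the 3 forms in cKO hearts and 3.16% ± 0.276 in controls, or 15.7% and 1.20% with all annotated exons as the length, and the sum was 0.530-fold that of controls (exact permutation p = 0.1, no overlap).

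**Figure D3:**
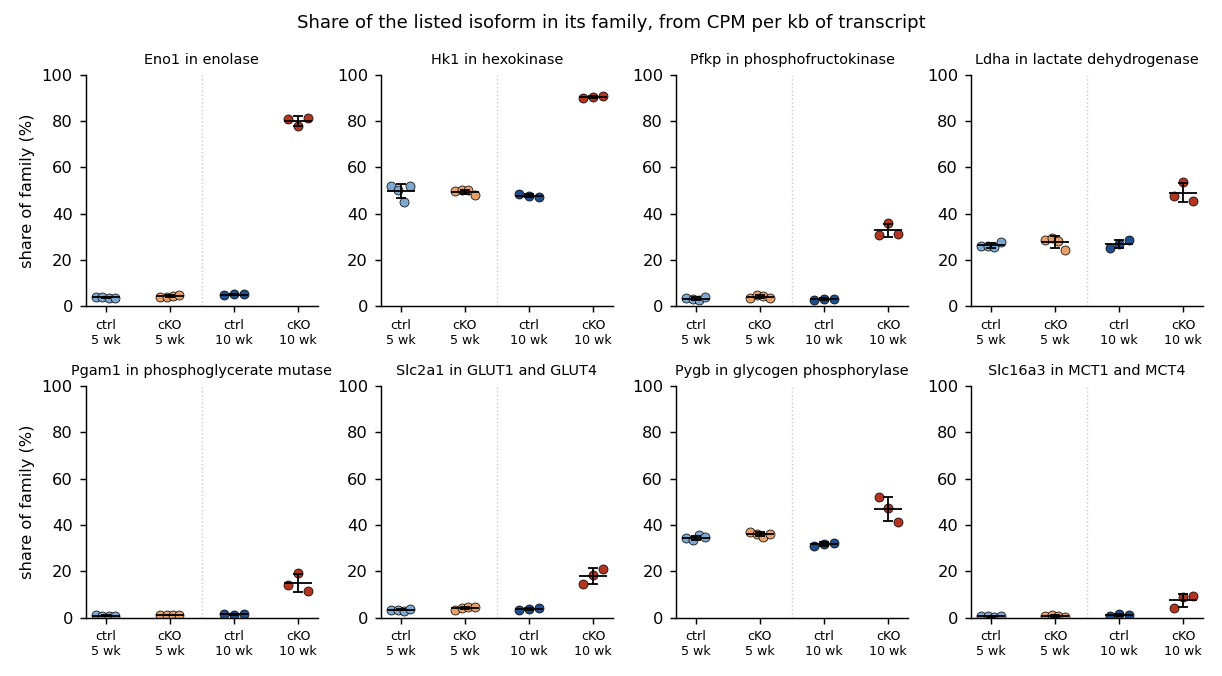
Share of the named isoform in its family per heart, from CPM per kb of the principal transcript (axes from 0 to 100%), points for hearts and bars for the mean and SD. The shares of Eno1, Hk1, Pfkp, Ldha, Pgam1, Slc2a1, Pygb and Slc16a3 were higher in every late cKO heart than in every late control, most for Eno1 (80.0% against 5.08%), and overlapped between the groups early.

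The Pfkfb enzymes set the level of the sugar phosphate that activates phosphofructokinase, and 2 of the 4 fell. Pfkfb1 stood at 2.29, 3.55 and 2.88 CPM in late cKO hearts and at 31.4, 21.0 and 21.1 CPM in controls (log2 change -3.07, SE 0.23, adjusted p = 5.67e-06). Pfkfb2, the heart form, stood at 16.6, 12.3 and 9.22 CPM in late cKO hearts and at 29.6, 38.9 and 45.3 CPM in controls (log2 change -1.58, SE 0.23, adjusted p = 0.000283). Neither gene overlapped between groups. Pfkfb3 stood at 24.2, 19.4 and 15.15 CPM in cKO hearts and 16.15, 17.0 and 14.04 CPM in controls (log2 change 0.32, adjusted p = 0.143), and Pfkfb4 at 5.18 to 7.71 and 4.23 to 5.24 CPM (log2 change 0.38, adjusted p = 0.115). Without cKO replicate 3, Pfkfb3 was called higher (log2 change 0.48, adjusted p = 0.00671).

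Below these steps Aldoa, Gapdh, Tpi1, Pgk1 and Pkm, which most tissues make, rose. Aldoa, the main aldolase of muscle, which splits the sugar bisphosphate, rose from 2985 ± 190 to 4969 ± 694 CPM (SD over 3 hearts in each group; log2 change 0.74, SE 0.15, adjusted p = 0.00186), Gapdh from 1433 ± 84.5 to 2596 ± 453 CPM (log2 change 0.86, SE 0.15, adjusted p = 0.00105) and Tpi1 from 623 ± 64.7 to 911 ± 165 CPM (log2 change 0.55, adjusted p = 0.0121). Late cKO replicate 3 was the highest heart for all of Aldoa, Gapdh and Tpi1. Pgk1, the first ATP-forming step, stood at 347, 358 and 397 CPM in late cKO hearts and at 145, 130.3 and 136 CPM in controls (log2 change 1.42, SE 0.11, adjusted p = 9.05e-06). Pkm, which makes pyruvate, rose from 1027 ± 87.9 to 1405 ± 162 CPM (log2 change 0.45, SE 0.14, adjusted p = 0.0156). The calls of Tpi1 and Pkm were lost without control replicate 2 (adjusted p = 0.0505 and 0.0672) or 3 (0.0564 and 0.0749).

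Aldoc, the brain aldolase, was nearly absent from these hearts. It had 95 reads over the 3 late cKO hearts and 5 over the 3 controls, a ratio of 18.7 (95% interval 7.72 to 58.8, which covers counting error only). Each late cKO heart stood at 0.783, 0.910 or 1.27 CPM and each control at 0.0651, 0.0629 or 0.03 CPM. Early there were 13 and 10 reads (ratio 1.20, interval 0.488 to 3.07). Aldoa was 99.99% of aldolase per kb in late cKO hearts.

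All 4 genes of glycogen synthesis rose late. Gyg (chr3:20122084-20155317), whose window is printed above, stood at 1231, 1194 and 1467 CPM in late cKO hearts and at 162, 141 and 146 CPM in controls, an 8.67-fold rise (log2 change 3.12, SE 0.14, adjusted p = 5.17e-07). Gys1, the muscle glycogen synthase, stood at 520.2, 605 and 555 CPM in late cKO hearts and at 141, 129.5 and 135 CPM in controls (log2 change 2.05, SE 0.12, adjusted p = 1.39e-06). The hearts of each group lay close together in both genes. Gbe1, which adds the branches, stood at 146, 143 and 118 CPM in late cKO hearts and at 44.9, 45.4 and 46.0 CPM in controls (log2 change 1.57, SE 0.12, adjusted p = 6.86e-06). Ugp2, which makes the activated glucose donor, rose from 242 ± 3.79 to 422 ± 28.1 CPM (SD over 3 hearts in each group; log2 change 0.80, SE 0.11, adjusted p = 0.000191). None of the 4 was called early.

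The 5 genes of glycogen breakdown went both ways, 2 up, 2 down and 1 not called. Pygm, the muscle phosphorylase that releases glucose units, fell from 1355 ± 99.4 to 853 ± 62.9 CPM (SD over 3 hearts in each group; log2 change -0.67, SE 0.12, adjusted p = 0.0012). Pygb, the brain form, stood at 1202, 1016 and 895 CPM in late cKO hearts and at 895, 835 and 845 CPM in controls (log2 change 0.27, adjusted p = 0.108). Late cKO replicate 3 lay inside the control range for Pygb, and without it Pygb was called higher (log2 change 0.38, adjusted p = 0.0112). Pygl, the liver form, stood at 10.5, 11.0 and 7.95 CPM in late cKO hearts and at 4.20, 5.16 and 5.01 CPM in controls (log2 change 1.04, SE 0.18, adjusted p = 0.000713). Pygb reached 46.8% ± 5.28 of the 3 phosphorylases per kb in cKO hearts, against 31.7% ± 0.760 in controls, and their sum was 0.817-fold that of controls (exact permutation p = 0.1, no overlap).

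Phosphorylase kinase, which switches phosphorylase on, gave the largest fall of any member. Phkg1, its muscle catalytic subunit (chr5:129863421-129898549), stood at 2.08, 1.25 and 1.13 CPM in late cKO hearts and at 40.4, 32.2 and 37.3 CPM in controls, a 24.5-fold fall (log2 change -4.61, SE 0.23, adjusted p = 7.23e-07). Phka1, its muscle regulatory subunit, stood at 107, 105 and 61.55 CPM in late cKO hearts and at 42.7, 38.4 and 46.1 CPM in controls (log2 change 1.11, SE 0.20, adjusted p = 0.00118). The 2 subunit genes thus moved in opposite directions, with cKO replicate 3 nearest to the controls in Phka1. Early, Phkg1 stood at 41.9, 31.4, 26.7 and 19.7 CPM in cKO hearts and at 45.0, 34.6, 36.1 and 32.2 CPM in controls, with overlap (log2 change -0.31, SE 0.18, adjusted p = 0.596). Among the subunits outside the 37 genes, Phka2 (log2 change 0.62, adjusted p = 0.0014) and the testis and liver catalytic subunit Phkg2 (0.39, adjusted p = 0.0252) rose late and Phkb was not called (-0.08, adjusted p = 0.67).

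**Figure D4:**
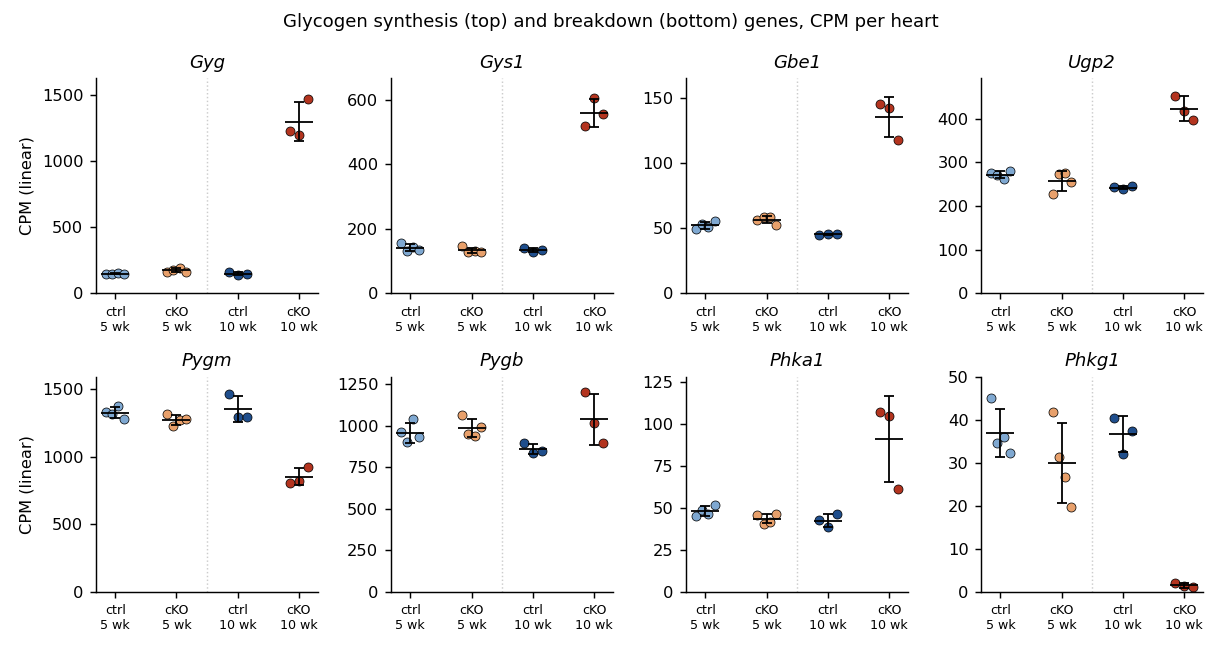
CPM of 4 glycogen synthesis genes (top row) and 4 breakdown genes (bottom row) in each heart at both times, points for hearts, bars for the mean and SD, linear axes from 0. Late cKO hearts lie above all late controls for the top row and Phka1, below them for Pygm and Phkg1, and overlap them for Pygb.

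The side-branch genes changed in opposite directions. Fbp2, the muscle enzyme that works against phosphofructokinase, stood at 6.50, 8.02 and 11.9 CPM in late cKO hearts and at 42.95, 28.7 and 27.2 CPM in controls (log2 change -1.90, SE 0.25, adjusted p = 0.000167). G6pdx, the entry enzyme of the pentose phosphate pathway, stood at 33.1, 53.3 and 48.1 CPM in late cKO hearts and at 10.8, 11.2 and 11.7 CPM in controls (log2 change 1.99, SE 0.18, adjusted p = 1.67e-05). Neither gene overlapped between groups.

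Within each late heart, the log2 ratio of the first gene to its counterpart was taken for all 11 pairs. In each pair it was lower in every cKO heart than in every control. Each had an exact permutation p of 0.1, the smallest possible, and 0.1 after adjustment. Late groups did not overlap for 69.8% of all single genes either, and ratios of other gene pairs were not taken for comparison. The pairs are not independent, since some share Pfkm or Pygm. The difference in the mean log2 ratio was -6.23 for Eno3 to Eno1 (SE 0.12), -3.55 for Pgam2 to Pgam1 (SE 0.28), -1.39 for Ldhb to Ldha (SE 0.16) and -2.50 for Slc2a4 to Slc2a1 (SE 0.22). It was -3.34 for Hk2 to Hk1, -4.02 for Pfkm to Pfkp, -0.99 for Pfkm to Pfkl, -0.93 for Pygm to Pygb and -1.69 for Pygm to Pygl. It was -2.71 for Slc16a1 to Slc16a3 and -3.17 for Aldoa to Aldoc, pairs whose first gene is not a muscle form alone and in which both genes rose. In Pfkm to Pfkl both genes fell, Pfkm by more.

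The order of levels changed as well, compared per kb of principal transcript. In late controls the highest members were Aldoa at 1976 ± 126 CPM per kb, Ldhb at 1030 ± 155.5, Gapdh at 1009 ± 59.5 and Eno3 at 922 ± 102 (SD, n = 3 each). The last 3 of these lay within their spread of each other. In late cKO hearts they were Aldoa at 3288 ± 459, Gapdh at 1828 ± 319, Gyg at 764 ± 87.3 and Gpi1 at 585 ± 51.8 CPM per kb. Pkm at 578 ± 66.5 and Tpi1 at 567 ± 103 lay within the spread of Gpi1. By this scale Eno3 stood at place 4 of the members in controls and 20 in cKO hearts, and Gyg at place 15 and 3. Places by the length of all annotated exons are not given, and enolase shares moved with that choice of length.

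Of 19 other glycolysis and lactate genes, 13 were tested, and late 1 rose and 8 fell, or 69.2% called, near the 65% of all genes. Ldhd, which oxidises the mirror form of lactate, fell from 49.8 to 7.58 CPM (log2 change -2.72, adjusted p = 5.17e-07), and Hk3 from 1.60 to 0.324 CPM (-2.28, adjusted p = 0.000115). Slc16a7 (the monocarboxylate transporter MCT2) was the gene of this list called early, at 5.38 against 8.16 CPM (log2 change -0.60, adjusted p = 0.0314), and it fell late too (-1.18, adjusted p = 0.00265).

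Of 11 tested other glucose transporters and trafficking genes (13 listed), late 1 rose and 6 fell (63.6% called). The transporters Slc2a12 (log2 change -3.01, adjusted p = 0.000115), Slc2a10 (-1.62, adjusted p = 0.000194) and Slc2a9 (-1.35, adjusted p = 0.00161) fell, as did Tbc1d4, the insulin-signalling brake on GLUT4 movement, from 92.7 to 24.3 CPM (-1.93, adjusted p = 0.000104). Of 20 tested other glycogen genes (21 listed), 9 rose and 6 fell (75% called). Stbd1, which tethers glycogen to membranes, rose from 14.4 to 203 CPM (3.82, adjusted p = 1.02e-06). The phosphoglucomutase Pgm2 rose from 248 to 684 CPM (1.46, adjusted p = 1.85e-05). Pgm5 rose (0.74, adjusted p = 0.000212) and Pgm2l1 fell (-1.59, adjusted p = 0.00015). Early, edgeR called 0 genes of either list, with an unadjusted p under 0.05 for 1 transporter gene and 3 glycogen genes, and DESeq2 called 0 and 2 (1 higher, 1 lower).

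Of 11 pentose phosphate and NADPH genes besides G6pdx, late 4 rose and 4 fell (72.7% called). Pgd, the next NADPH-making enzyme, rose from 33.5 to 94.7 CPM (log2 change 1.501, adjusted p = 1.41e-05), Taldo1 from 81.1 to 255 CPM (1.65, adjusted p = 2.81e-05) and Me1, the cytosolic malic enzyme, from 99.9 to 270.0 CPM (1.43, adjusted p = 1.45e-05). Rpia fell (-0.83, adjusted p = 0.00142). Early, edgeR and DESeq2 each called 0 of the 11, and 1 had an unadjusted edgeR p under 0.05. Of 14 transcription regulators of glucose genes, 2 rose and 1 fell early (21.4% called, against 0.613% of all genes), and 5 rose and 3 fell late (57.1%, against 65%). Myc rose at both times, from 2.59 to 6.97 CPM early (1.42, adjusted p = 0.00873) and from 3.62 to 36.0 CPM late (3.31, adjusted p = 1.37e-06), and Atf4 did so too (0.64, adjusted p = 0.00495, and 2.91, adjusted p = 1.59e-06). Ppargc1a, a coactivator of mitochondrial genes, fell early (-0.58, adjusted p = 0.0223) and was not called late (-0.49, adjusted p = 0.135). Hif1a, the oxygen-regulated activator of glycolytic genes, rose late from 47.0 to 279.8 CPM (2.58, adjusted p = 7.97e-06), and Mlxipl, the glucose-responsive factor ChREBP, fell from 49.1 to 6.07 CPM (-3.01, adjusted p = 2.82e-06).

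Several members share exons with another gene in GENCODE M21, and the library kit does not mark the strand. The shared part was 13.6% of exon bases for G6pdx (with Ikbkg, which rose late), 11.5% for Gpi1 (Gm26762, which rose), 9.7% for Phkg1 (Sumf2, which fell), 6.5% for Gys1 (Ruvbl2, which fell) and 5.6% for Pfkp (Pitrm1, which rose). It was 17.4% for Pfkfb2, 15.3% for Pkm and 10.2% for Pfkm with models on the same strand. Gapdh, Ldha, Pgam1, Tpi1 and Aldoa have many processed copies in the genome, and how reads that fit several places were counted is not given in the sources used here, so their levels are less certain.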

How the data were processed

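Gene expression was measured by RNA-seq in 14 mouse hearts. Libraries were made from poly-A RNA (100 ng of total RNA) with the TruSeq kit V2, which does not keep the strand, and sequenced as single reads of 100 nt, per the labels' protocols. The submitters' processing notes name Trimmomatic 0.36, STAR 2.6.0c and the build GRCm38. How reads were counted, and with which annotation or strand setting, is not given in the sources used here. Whole-number read counts per gene symbol were deposited by the authors in 1 table per time point, not normalized as far as the values show.

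Groups follow the labels. The test was that of edgeR 4.0.16 (R 4.3.3), a quasi-likelihood F test on the counts after TMM scaling and filterByExpr (minimum count 10, total 15), adjusted by Benjamini-Hochberg over all genes tested. A gene is called where the adjusted p is under 0.05, and adjusted p-values are edgeR's unless DESeq2 1.42.0 is named. Time points were fitted apart, and the difference between times in 1 fit of all hearts. The SE is the log2 fold change over the square root of F. CPM were computed from the counts with TMM-scaled library sizes. Isoform ratios (0.5 counts added) and shares used the length of the longest APPRIS principal transcript of GENCODE M21 (GRCm38) and two-sided exact permutation tests. Counting intervals are exact, at 95%, and leave out all but counting error. The scripts were tested on simulated counts. No 2 libraries of a group agreed within sampling noise (chi-square per gene at least 2.90).

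The 37 genes, the other gene lists and the isoform pairs were chosen with earlier results of these data known. Named with values per heart are the 4 pairs Eno3 and Eno1, Pgam2 and Pgam1, Ldhb and Ldha, Slc2a4 and Slc2a1, and members called late with a log2 fold change of at least 1 in size. From each other list, genes called early and up to 4 with the smallest late p are named, except 2 genes that are not reported here. The early hearts of Eno3, Slc16a1, Gyg and Phkg1, and Hk2, Slc16a1, Pfkfb3 and Pygb late, were added after their values were seen, as were Phka2, Phkg2, Phkb, the overlapping genes and the single cell type markers.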

Additional observations from a re-analysis of the deposited data

Results flagged for a closer look

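Of 74 groups of 4 early hearts looked at, 1 gene at a time, 2 held a heart far from the others by Dixon's criterion at 95%, while chance flags about 1 in 20 groups. Gpi1 stood at 507 CPM in early cKO replicate 2 and at 530.5 to 535 CPM in the other 3 cKO hearts. Pgam1 stood at 7.32 CPM in early cKO replicate 4, the library with the conflicting genotype label, and at 8.37 to 8.475 CPM in the other 3.

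The genotype effect differed between times, by edgeR's test of the late minus the early log2 fold change in 1 fit, for 33 of 37 members, against 61.2% of all genes. Among the 21 with a higher late change the difference was 3.86 for Aldoc, 3.27 for Slc16a3, 2.92 for Gyg, 2.65 for Eno1, 2.49 for Hk1, 2.30 for Pgam1, 2.24 for Pfkp, 2.15 for Gys1, 1.86 for G6pdx, 1.49 for Pgk1, 1.48 for Gbe1, 1.46 for Gpi1, 1.45 for Slc2a1, 1.26 for Phka1, 1.02 for Pygl, 0.93 for Gapdh, 0.90 for Ugp2, 0.75 for Aldoa, 0.61 for Slc16a1, 0.60 for Tpi1 and 0.54 for Pkm.

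Among the 12 members with a lower late change it was -4.29 for Phkg1, -3.38 for Eno3, -2.74 for Pfkfb1, -1.75 for Fbp2, -1.45 for Pfkm, -1.40 for Ldhb, -1.28 for Pfkfb2, -1.05 for Pgam2, -0.87 for Hk2, -0.75 for Slc2a4, -0.59 for Pygm and -0.59 for Pfkl. The muscle forms Eno3, Pgam2, Pfkm, Pygm and Slc2a4 stand in this group. Not all muscle forms do, since Gys1 (2.15), Phka1 (1.26) and Aldoa (0.75) stand in the group with a higher late change.

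Of the genes outside the 37 whose log2 changes are given, the difference was called as higher late for 11 genes, at 3.31 for Stbd1, 2.55 for Hif1a, 2.29 for Atf4, 1.90 for Myc, 1.63 for Taldo1, 1.51 for Pgm2, 1.46 for Pgd, 1.24 for Me1, 0.84 for Pgm5, 0.61 for Phka2 and 0.50 for Phkg2. It was called as lower late for 10, at -2.77 for Mlxipl, -2.71 for Hk3, -2.65 for Slc2a12, -2.63 for Ldhd, -1.90 for Tbc1d4, -1.62 for Slc2a10, -1.57 for Pgm2l1, -1.53 for Slc2a9, -0.74 for Rpia and -0.70 for Fam210a. It was not called for Slc16a7 (-0.56, adjusted p = 0.0699), Ppargc1a (0.10, adjusted p = 0.77) and Phkb (-0.08, adjusted p = 0.696). Of all genes, 29.8% were called higher and 31.3% lower. Most of the genes named here were picked for a small late p, which makes a called difference likely, so their count shows no more than that choice.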

How the results depend on the processing

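Counts of called members were recomputed with other scaling (RLE size factors, total counts, upper quartile), without the filter on low counts, with robust dispersion, with DESeq2, with the replicate number as a block and with each heart left out. Early, edgeR called 1 member without the filter (1 lower, Eno3) and DESeq2 called 2 (2 lower, Eno3 and Slc16a1), against 0, and the cause was not tested. Leaving out 1 early heart left 0. The early isoform ratios that did not overlap numbered 0 to 2 of 11 with 1 heart left out and 1 with cKO replicate 4 as a control, against 0. The late count was 30 to 35 members with 1 heart left out (18 to 23 higher, 12 lower) and 33 to 35 for the difference between times, and all 11 late pairs stayed apart. No called member changed direction, while 11 of the members not called early changed sign in some setting.

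Over all genes the early count was 83, against 388 without the filter, 177 with DESeq2, 162 with cKO replicate 4 as a control, and 45 (without control replicate 4) to 181 (without cKO replicate 4). Upper quartile scaling moved the median of all late genes by -0.17 on the log2 scale. It split late calls into 3848 higher and 5825 lower (4757 and 4957 with TMM), and calls of the difference between times into 3328 and 5570 (4342 and 4561). With it Slc16a1 (adjusted p = 0.138), Tpi1 (0.058) and Pkm (0.098) lost their late calls and Ldha gained one.

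The replicate numbers did not pair the hearts, since deviations of hearts with the same number correlated at -0.41 to -0.04 and no heart correlated best with its own number. With the replicate block 0 members were called early and 31 late, as Slc16a1 (adjusted p = 0.0746) and Pkm (0.0684) lost their calls. With all annotated exons as the length, an alternative chosen after seeing the data, shares and sums within families moved, most for enolase, hexokinase and phosphofructokinase, and no sum changed direction. With 3 hearts a group, small late changes may go uncalled.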
